A study of Homo sapiens with 32 samples.

Results

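Expression after deletion of a distal element named 18qNE was compared between 3 deletion clones and control clones of HCT116, a cell line derived from a human colorectal carcinoma. The 11 libraries used, of 32 samples in the series, were chosen by their labels: the 3 libraries of 18qNE clones and the 8 control libraries whose RNA was extracted on the same days. 18qNE clones 1 and 3 were extracted on day A and clone 2 on day B, with 1 library each. Control clones 1 to 4 were each extracted on both days and gave 2 libraries per clone. All clones had received Cas9-GFP, were sorted for high GFP and were grown from a single cell; guide RNAs were added for the deletion clones, and a vector without a guide for the controls. The cells carried no other treatment in the labels and were harvested near confluence. The position of 18qNE and the guide sequences are not in the sources used here, and the element has no row in tables of reads per gene, so the deletion itself was not tested. Each deletion clone descends from 1 edited cell, so the deletion and other differences between single-cell clones cannot be told apart, and p-values cover only the variation among these clones.

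Distal elements are stretches of noncoding DNA that can raise the transcription of genes on the same chromosome, often at a distance and past nearer genes. Deleting one with Cas9 and reading the whole transcriptome asks which genes depend on it. On the long arm of chromosome 18, SMAD7, SMAD2 and SMAD4 lie within 18q21. They are parts of TGF-beta signalling, in which receptors phosphorylate SMAD2 and SMAD3, these join SMAD4 in the nucleus, and SMAD7 is induced and limits the receptors. HCT116 cells are known for a mutated TGFBR2 gene.

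The libraries held 11383373 to 14079432 reads in genes in the 18qNE clones and 10724569 to 14445320 in the control clones. Levels are given as CPM, the reads of a gene relative to all reads in genes of its library, scaled with TMM factors. The CPM of the 18qE and E7 clones and of the day D controls are without TMM factors. Most colorectal epithelial markers were expressed. The summed level of 12 such genes was 4823 to 6088 CPM in 18qNE and 4114 to 5723 CPM in control libraries. However, 3 of them (CEACAM5, VIL1 and CDH17) were below 1 CPM throughout. Of 10 leukocyte genes, 9 were below 1 CPM in all 11 libraries, with PTPRC and CD3D at 0. Of 9 fibroblast genes, 8 were below 1 CPM, with COL1A2, DCN and PDGFRA at 0. The fibroblast genes still summed to 23.22 to 25.24 CPM in 18qNE and 19.64 to 29.97 CPM in control libraries. Markers of other cells were not all absent. In control libraries, 11 HEK293 markers summed to 142.1 to 202.9 CPM and 8 neuronal markers to 15.1 to 26.09 CPM. The root mean square log2 distance of a library from the control libraries of its day, over 11893 genes, was 0.306, 0.273 and 0.305 for 18qNE clones 1 to 3, within the 0.200 to 0.361 spanned by the control libraries. The control library farthest out was that of clone 3 on day B.

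Across the transcriptome the 18qNE clones were close to the controls, and 1 gene passed the test. SLC2A1, which encodes the glucose transporter GLUT1, rose 1.88-fold. A gene was called when its adjusted p was below 0.05 in both an edgeR quasi-likelihood fit and a limma-voom fit that allowed the 2 libraries of a control clone to resemble each other, each with the day as a term. Of 14756 genes tested, 1 was called, 0.00678%; edgeR alone called 3 (SLC2A1, SEMA3A and DNAH2) and limma alone called 1. At an unadjusted p below 0.05 in both fits, 334 genes were higher (2.26%) and 388 lower (2.63%). In 48 genes (0.325%) all 3 18qNE libraries lay above all 8 control libraries, and in 69 genes (0.468%) they lay below. The 95% interval of the log2 change lay within 1 unit either way for 13251 genes, 89.8% of those tested. A change of more than 2-fold is thus outside the interval for most genes and inside it for the rest. These edgeR intervals count the 2 libraries of a control clone as independent, so they may be too narrow. The median log2 change of all genes was 0.00092, and 100 genes had an estimate of at least 1 unit in size.

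**Figure D1:**
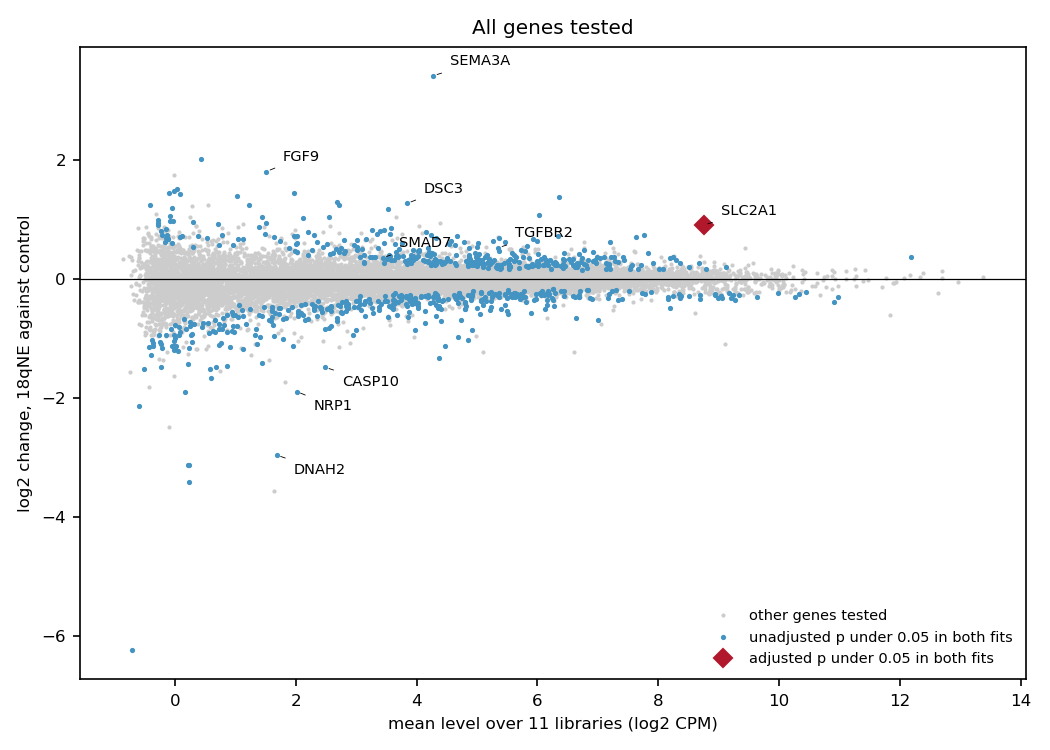
Log2 change of each of 14756 genes in 18qNE against control clones (vertical axis) against its mean level in log2 CPM over 11 libraries (horizontal axis). Blue points have an unadjusted p below 0.05 in both fits, and the red diamond, SLC2A1, is the 1 gene with an adjusted p below 0.05 in both.

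GLUT1 carries glucose across the plasma membrane in most cell types and is a known target of hypoxia signalling. SLC2A1 (ENSG00000117394.15, chromosome 1) measured 652.2, 557.1 and 782.9 CPM in 18qNE clones 1, 2 and 3. In the control clones it measured 323.1, 392.2, 319.0 and 401.8 CPM on day A and 335.6, 313.1, 365.6 and 304.2 CPM on day B. The groups did not overlap, and clone 3 stood highest and clone 2 lowest of the 18qNE libraries. The mean was 664.1 ± 113.4 CPM (SD, n = 3) against 344.3 ± 37.42 CPM (SD, n = 8 libraries of 4 clones), a log2 change of 0.91 (SE 0.0998, larger adjusted p of the edgeR and limma fits 0.00872). The call was lost, with a log2 change of similar size, when the control libraries were summed per clone (0.97, adjusted p = 0.136), on day A only (1.00, adjusted p = 0.462), without 18qNE clone 2 (1.00, adjusted p = 0.0672) and without control clone 1 (0.89, adjusted p = 0.122). Beside it, the 2 clones with a deletion of another element, 18qE, held 522.7 and 596.0 CPM on day D against 381.0 and 369.7 CPM in control clones 1 and 2 of that day. The E7 deletion clone held 446.8 CPM on day A and 385.2 CPM on day B, 0.32 and 0.25 log2 units above the mean of its same-day controls. These comparisons share control clones with the present one.

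The sequence ahead of the SLC2A1 start site is shown because it is the promoter of the 1 called gene. It spans chr1:42958819-42959118 on the minus strand of GRCh38.p14 and is taken from RefSeq, 250 bases before the start to 50 after it. Capitals mark TATAAA, both matches of GGGCGG, here in its reverse complement, and the 1 match of GCGTG.
SLC2A1: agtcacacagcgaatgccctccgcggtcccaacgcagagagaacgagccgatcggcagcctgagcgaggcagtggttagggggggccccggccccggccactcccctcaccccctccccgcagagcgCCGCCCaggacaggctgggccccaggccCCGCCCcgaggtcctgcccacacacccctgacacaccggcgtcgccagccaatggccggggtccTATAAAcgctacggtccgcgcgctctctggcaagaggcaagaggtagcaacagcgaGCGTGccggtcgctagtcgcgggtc
The TATAAA match begins 31 bases before the start site, and 11.5% of 35116 RefSeq promoters of 300 bases hold these letters on either strand. GGGCGG occurred in 45% of them. Of the core letters of the hypoxia response element, searched on both strands, ACGTG occurs in 21.4% of promoters and is not in this window. GCGTG occurs in 36.5% of promoters and once in this window, after the start site. Of the 31 genes named by rule, 17 had an entry in the promoter table.

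The other genes with the strongest evidence of a higher level did not pass, and are given by their values. SEMA3A, a secreted axon guidance factor, had the largest estimate among the named genes. It measured 24.06, 47.65 and 97.66 CPM in 18qNE clones 1, 2 and 3, and 0.897 to 11.88 CPM in the control libraries. Every 18qNE library was above every control library, with the least in clone 1 and the most in clone 3. Genes were named for lying beyond same-day controls, so this separation follows largely from the choice. The log2 change was 3.42 (SE 0.436), with an adjusted p of 0.0123 by edgeR and 0.0588 by limma, so the gene missed the threshold in the limma fit. It was called without the day B library of control clone 3 (adjusted p = 0.0415), without 18qNE clone 1 (0.00388) and without control clone 4 (0.0474); its adjusted p ranged from 0.000602 to 0.724 over the alternatives. In the 18qE clones SEMA3A measured 12.98 and 5.85 CPM against 3.88 and 18.76 CPM in their controls, and in the E7 clone 232.2 and 147.0 CPM.

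FGF9, a growth factor of the fibroblast growth factor family, measured 5.60, 7.04 and 4.12 CPM against 0.628 to 2.84 CPM in the controls (log2 change 1.81, SE 0.30, adjusted p = 0.0968). The E7 clone held 38.08 and 32.66 CPM of FGF9, and the 18qE clones 0.402 and 1.52 CPM. SEMA3D, another secreted semaphorin, measured 5.51, 2.08 and 3.30 CPM against 0.359 to 2.03 CPM (log2 change 1.39, adjusted p = 0.334). NRP1, a neuropilin that binds SEMA3A as a co-receptor, was lower in estimate: 1.93, 1.08 and 1.12 CPM in 18qNE and 2.38 to 7.77 CPM in control libraries (log2 change -1.89, SE 0.337, adjusted p = 0.297). NRP1 went the other way in the E7 clone, at 13.26 and 13.62 CPM. These genes were named because each 18qNE library lay beyond its same-day controls. None of them was called by both fits.

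TGFBR2, the type II receptor of TGF-beta, measured 59.41, 47.94 and 52.80 CPM in 18qNE and 26.01 to 42.40 CPM in control libraries. The log2 change was 0.53 (SE 0.111) and the adjusted p was 0.354. The groups did not overlap, which held on the higher side for 0.325% of all genes. TGFBR2 was named because each 18qNE library lay beyond its same-day controls, so this separation follows largely from the choice. DSC3, a desmosomal cadherin on chromosome 18, measured 30.98, 24.80 and 19.25 CPM against 4.22 to 15.68 CPM (log2 change 1.28, adjusted p = 0.238). In the 18qE clones DSC3 measured 13.90 and 36.60 CPM against 7.08 and 8.58 CPM, and in the E7 clone 30.61 and 36.94 CPM. TSPAN14, a tetraspanin, had means of 197.9 ± 27.51 CPM (SD, n = 3) and 126.8 ± 14.79 CPM (SD, n = 8; adjusted p = 0.137). The E7 clone held 72.33 and 64.40 CPM of TSPAN14, below the 109.0 to 150.9 CPM of the control libraries. CD274, the immune checkpoint ligand PD-L1, measured 2.92 to 5.43 CPM in 18qNE and 0.987 to 2.64 CPM in control libraries (adjusted p = 0.574). The remaining genes filling the higher places of the naming rule were MTSS1, SRPX2, MGLL and WNT7B, with log2 changes from 0.48 for WNT7B to 1.25 for SRPX2 and adjusted p-values from 0.205 to 0.54. In the E7 clone MTSS1, MGLL and WNT7B were below their same-day controls on days A and B. Their log2 differences were -1.03 and -1.11, -2.78 and -1.88, and -0.63 and -0.50. SRPX2 was above its controls there (1.08 and 0.94).

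On the lower side no gene was called by both fits; 388 genes had an unadjusted p below 0.05 in both edgeR and limma. DNAH2, an axonemal dynein heavy chain, measured 0.70, 0.647 and 0.225 CPM in 18qNE, from 20 reads in all, and 1.58 to 6.73 CPM in control libraries. The groups did not overlap, which held on the lower side for 0.468% of all genes and which the naming rule favoured. The log2 change was -2.96 (SE 0.434), with an adjusted p of 0.0405 by edgeR and 0.137 by limma. The 18qE clones held 1.00 and 1.47 CPM of DNAH2 against 3.76 and 3.18 CPM, and the E7 clone 0.673 and 0.772 CPM. CASP10, an initiator caspase of death receptor signalling, measured 1.93, 2.66 and 2.55 CPM in 18qNE. Control libraries held 6.40 to 10.01 CPM of CASP10 on day A and 3.59 to 6.38 CPM on day B (log2 change -1.48, SE 0.253, adjusted p = 0.137). The level in controls differed by day, so 18qNE clone 2 of day B stood closer to its controls than the other clones. ART5, an ADP-ribosyltransferase, measured 0.863 to 1.498 CPM against 1.96 to 5.21 CPM (adjusted p = 0.37). GRIN2C, GRIN1, SSTR5, PCYOX1L and OLFM2 had log2 changes from -0.78 to -0.51 and adjusted p-values from 0.297 to 0.574. GRIN2C went the other way in the E7 clone, at 10.97 and 10.89 CPM against 4.51 to 9.14 CPM in control libraries. KIFC2 and RHPN1, on chromosome 8, had log2 changes of -0.57 and -0.53, with adjusted p-values of 0.137 and 0.297, and lie in a stretch described further on.

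**Figure D2:**
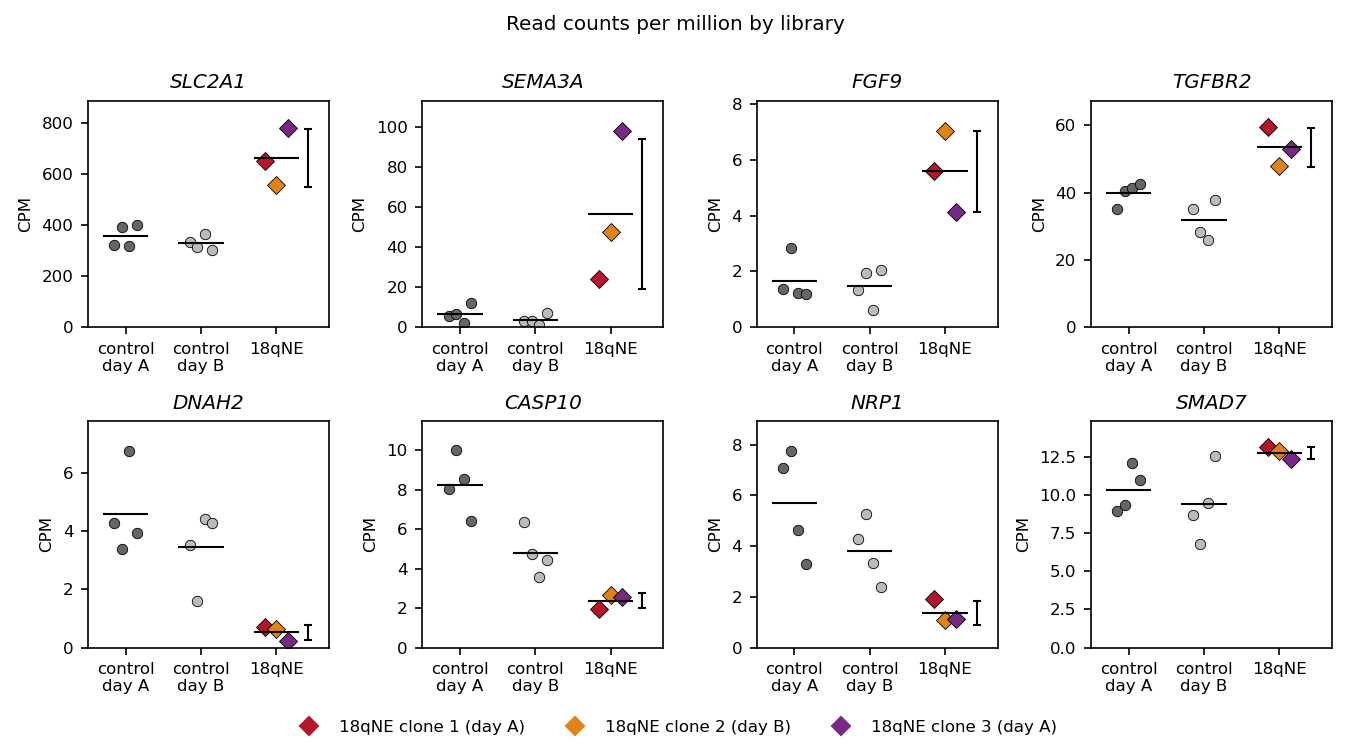
Level in CPM (vertical axis, from 0) of 8 genes in control libraries of day A and day B (circles, 4 clones each) and in 18qNE clones 1 to 3 (diamonds), with group means as lines and the SD of the 3 18qNE clones as the bar. SLC2A1 lies between 557.1 and 782.9 CPM in 18qNE, above all control libraries, while SMAD7 overlaps the control clones of day B.

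SMAD7 and its neighbours were examined because the name of the element places it on the long arm of chromosome 18. Of 38 genes of 18q21 found in the tables, 29 were tested and 0 were called by both fits; 2 had an unadjusted p below 0.05 in edgeR and limma, both higher, where the share over all genes was 4.89% in both directions together. The median log2 change of the 29 was 0.01, with a range of -0.60 for ZBTB7C to 0.58 for RNF165. For 26 of the 29 the 95% interval lay within 1 log2 unit either way. Of all 188 genes tested on chromosome 18, 11 had an unadjusted p below 0.05, near that share, and 0 were called, with a median log2 change of 0.06.

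SMAD7, the inhibitory SMAD, measured 13.13, 12.87 and 12.36 CPM in 18qNE clones 1, 2 and 3. Control libraries held 8.95, 9.33, 12.09 and 10.97 CPM on day A and 8.71, 6.79, 9.51 and 12.58 CPM on day B. Each 18qNE library was above the controls of its own day, but clone 3 was below control clone 4 of day B. The log2 change was 0.36 (95% interval 0.01 to 0.71, unadjusted p = 0.0442, larger of edgeR and limma, adjusted p = 0.903), so a fall of SMAD7 was not seen. The E7 clone measured 0.875 and 2.04 CPM of SMAD7 on days A and B, and the 18qE clones 8.80 and 9.96 CPM against 9.95 and 9.58 CPM. SMAD2 measured 99.62 to 136.7 CPM in 18qNE and 97.21 to 132.5 CPM in control libraries, with a log2 change of 0.07 (SE 0.098). SMAD4 measured 57.93 to 72.28 CPM and 55.58 to 69.64 CPM, with a log2 change of 0.02 (SE 0.0842). The signs of these small estimates changed when single clones were left out.

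The nearest tested genes before SMAD7 in chromosomal order were ZBTB7C and CTIF, and those after it DYM and C18orf32. CTIF, a translation initiation factor partner, had a log2 change of 0.22 (adjusted p = 0.932) and C18orf32 of 0.21 (adjusted p = 0.959). ZBTB7C, a zinc finger repressor, measured 1.27 to 1.58 CPM in 18qNE and 0.98 to 3.62 CPM in control libraries (adjusted p = 0.927). DYM, a Golgi protein, was high in 1 clone and low in another: 48.65 CPM in clone 1, 39.24 in clone 2 and 23.74 in clone 3. Control libraries held 37.19 to 44.95 CPM, so clones 1 and 3 lay on opposite sides of all of them. DYM in clone 1 was 1.03 log2 units above clone 3 (SE 0.179, edgeR adjusted p = 0.0599) and did not pass. LIPG, a lipase, had 0 reads in clone 3, which allows up to 0.225 CPM, against 0.156 to 1.67 CPM in control libraries, which overlap that limit, and 1.49 and 0.503 CPM in clones 1 and 2. CFAP53, a cilia and flagella protein, measured 2.98, 1.37 and 0.974 CPM in clones 1, 2 and 3 and 0.987 to 3.02 CPM in control libraries, and clone 1 did not differ from clone 3 past the threshold (edgeR adjusted p = 0.242). RPL17, a ribosomal protein gene between DYM and LIPG, was at -0.06, -0.14 and -0.07 log2 units from its controls in clones 1, 2 and 3. RNF165, a ubiquitin ligase, measured 9.01, 7.69 and 14.23 CPM against 4.44 to 8.38 CPM (log2 change 0.58, adjusted p = 0.795).

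**Figure D3:**
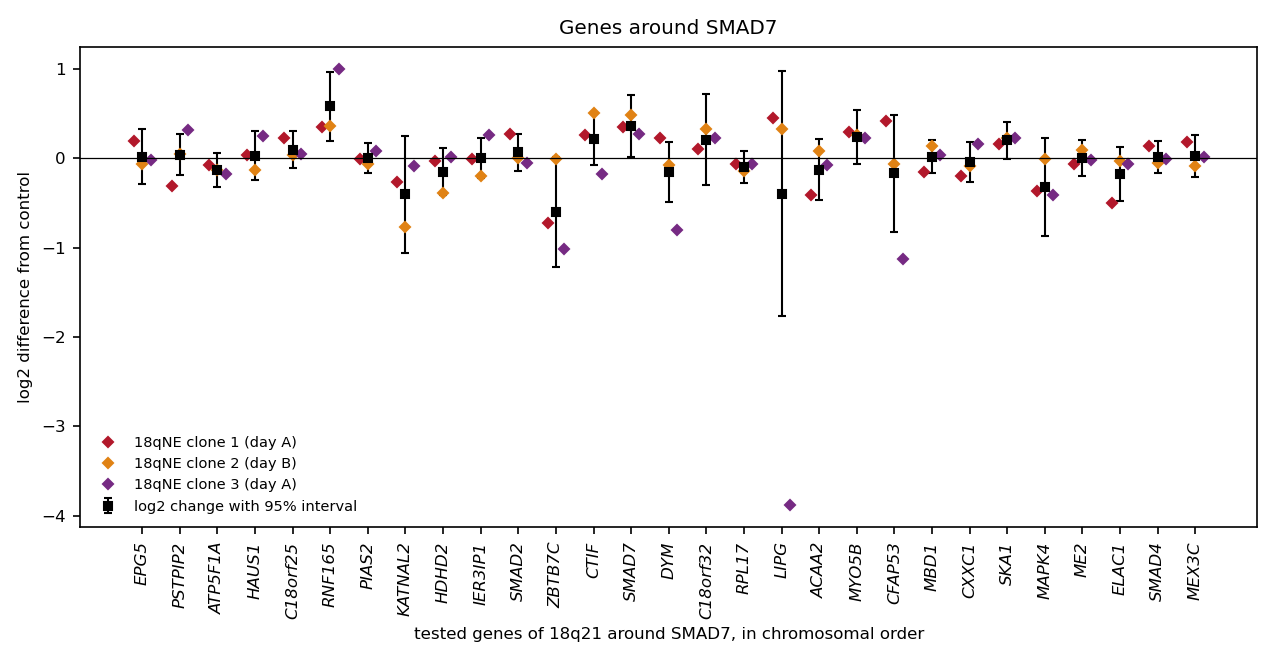
Log2 difference from control (vertical axis) for 29 tested genes of 18q21 in chromosomal order (horizontal axis). Black squares give the log2 change over the 3 18qNE clones with its 95% interval, and diamonds give each clone against the control clones of its day. SMAD7 is at 0.36, and clone 3 is at -0.80 for DYM, -1.13 for CFAP53 and 1.00 for RNF165; its LIPG point comes from 0 reads, so the prior count sets its place.

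Of 34 gene lists, 1 held a called gene: SLC2A1 in hypoxia and glycolysis. The other 29 tested genes of that list were not called; KDM3A, a histone demethylase induced by hypoxia, also had a low unadjusted p. The list's median log2 change was 0.18, against 0.00092 for all genes, and 28 of 30 members had a positive estimate. By clone the median was 0.475, 0.0787 and 0.0369, with a range of -0.383 to 0.295 among control libraries, so clone 1 lay above that range and clones 2 and 3 within it. LDHA, the enzyme of lactate formation, measured 1479, 1337 and 1177 CPM in 18qNE clones 1 to 3 and 912.7 to 1377 CPM in control libraries (adjusted p = 0.927). HK2, hexokinase 2, measured 153.7 to 166.3 CPM in 18qNE and 81.79 to 177.0 CPM in control libraries. CA9, a marker of hypoxic cells, measured 0.613, 4.60 and 0.449 CPM in clones 1 to 3 and 0.406 to 7.44 CPM in controls. NDRG1, another hypoxia-induced gene, measured 452.9 CPM in clone 1, 92.50 in clone 2 and 107.8 in clone 3, while the controls spanned 57.72 to 277.2 CPM. VEGFA, which encodes an angiogenic factor, spanned 57.97 to 64.84 CPM and 51.05 to 63.85 CPM. Apart from SLC2A1, the members named here overlapped with the controls in at least 1 clone.

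TGF-beta signalling showed no called gene in either fit. Among 20 ligands and receptors tested, TGFBR2 and THBS1 were higher and LTBP4 lower at an unadjusted p below 0.05 in edgeR and limma, beside 2.26% higher and 2.63% lower over all genes. Of 22 TGF-beta target genes tested, 4 were higher at that level (SMAD7, FN1, SNAI1 and THBS1) and 1 lower (BAMBI). SNAI1 lies in a stretch of chromosome 20 that was higher in clone 3, described further on, but was at 15.23, 20.20 and 14.68 CPM in clones 1, 2 and 3. BAMBI, a decoy receptor, measured 15.05, 20.48 and 21.05 CPM in 18qNE and 21.13 to 55.15 CPM in control libraries. FN1, fibronectin, measured 59.24, 25.95 and 25.99 CPM against 11.66 to 30.08 CPM. The median log2 change of the target genes was 0.14, but it was 0.286, 0.164 and -0.294 in clones 1, 2 and 3, and it was -0.16 without clone 1.

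Epithelial junction genes had 6 of 33 tested members higher and 0 lower at an unadjusted p below 0.05, against 2.26% of all genes higher, and 0 called by both fits. DSG2, ESRP1, GRHL1, DSC2 and ST14 were among these. By clone the median log2 difference of the list was 0.221, 0.190 and 0.027 in clones 1, 2 and 3. Control libraries spanned -0.209 to 0.242, so every clone lay within their range. DSC2, a desmosomal cadherin encoded beside DSC3, measured 149.2, 101.1 and 70.10 CPM in clones 1, 2 and 3. Its control libraries spanned 17.94 to 75.12 CPM, from the low clone 3 to the high clone 4, so 18qNE clone 3 overlapped with them (log2 change 1.08, adjusted p = 0.795). ESRP1, an epithelial splicing regulator, measured 186.4 to 237.7 CPM and 115.1 to 198.6 CPM. CDH1, E-cadherin, measured 88.12 to 115.9 CPM in 18qNE and 54.17 to 111.5 CPM in controls (adjusted p = 0.927). Of 21 interferon response genes tested, IFI6, IFIT1 and ISG15 were lower at an unadjusted p below 0.05, against 2.63% of all genes, and 0 were called. Lists of mitosis (40 genes), DNA replication (40), ribosome biogenesis (36) and mitochondrially encoded genes (13) had 0 members below an unadjusted p of 0.05 in both edgeR and limma.

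**Figure D4:**
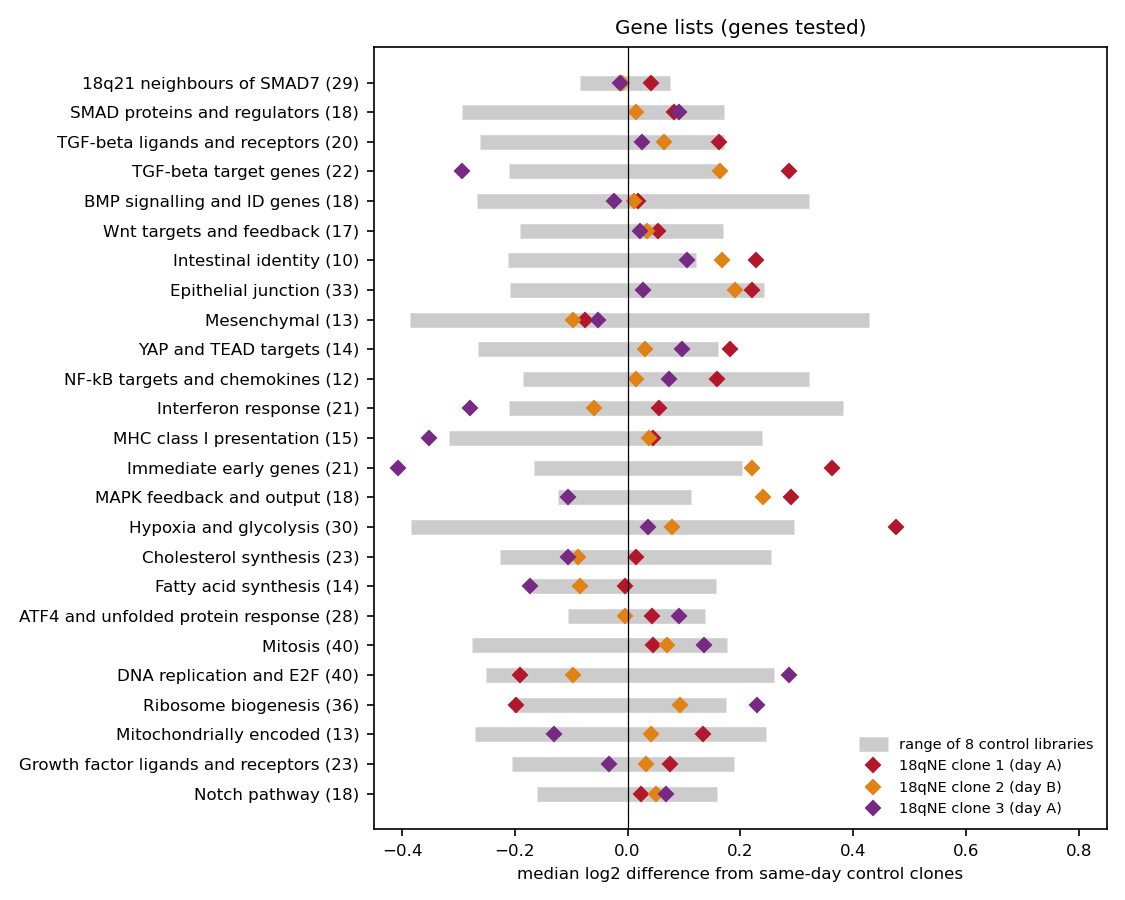
Median log2 difference from the control clones of the same day (horizontal axis) for 25 gene lists with at least 10 genes tested (vertical axis). Diamonds are the 3 18qNE clones and grey bars the range of 8 control libraries; in hypoxia and glycolysis clone 1 is at 0.475, and no list has all 3 clones outside the grey bar on the same side.

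Genes were also called between the 18qNE clones, most of them between clones 1 and 3. The spread for these tests was taken from the control libraries, since each 18qNE clone has 1 library. Clone 2 differs from the others also by its day, which the fit takes up from the controls. The fit held no term for the control clone, so the 2 libraries of a control clone counted as independent, unlike in the limma fit above. Clone 1 against clone 3 gave 21 called genes by edgeR (0.142% of those tested), 14 higher in clone 1 and 7 higher in clone 3. With 1 library on either side, these calls compare 2 libraries and not 2 conditions. The count moved with the controls and the tool: DESeq2 called 236, and by edgeR it was 3 without control clone 2, 4 without control clone 4, 6 without control clone 1 and 82 without control clone 3. Clone 1 against clone 2 gave 1 called gene (0.00678%), GPR173, with 568 genes at an unadjusted p below 0.05. Clone 2 against clone 3 gave 0 called genes (0%) by edgeR, with 680 genes at an unadjusted p below 0.05, while DESeq2 called 27.

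Against the mean of the other two, edgeR called 9 genes for clone 1 and 0 for clones 2 and 3, which had 385 and 1430 genes at an unadjusted p below 0.05. WNT16, a secreted Wnt ligand, measured 239.5 CPM in clone 1, 104.9 in clone 2 and 22.02 in clone 3, with 59.53 to 119.5 CPM in control libraries. Clone 1 was thus above and clone 3 below every control library, 3.44 log2 units apart (SE 0.39, edgeR adjusted p = 0.0122). VCAN, the matrix proteoglycan versican, measured 453.6 CPM in clone 1 and 75.83 and 106.5 CPM in the other clones (adjusted p = 0.0297 against the other two, edgeR). Control libraries held 126.1 to 226.9 CPM, so clone 1 was above and clones 2 and 3 below all of them. PDE2A, a cyclic nucleotide phosphodiesterase, measured 41.21 CPM in clone 1 against 10.13 and 11.23 CPM, and 5.06 to 11.36 CPM in controls. GPR173, an orphan receptor, had 2 reads in clone 1 and 103 in clone 3, a ratio of 0.0227 (95% interval 0.00271 to 0.0841, exact, counting error only). In the controls GPR173 measured 5.21 to 12.16 CPM.

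HMGB1, an abundant chromatin protein, measured 344.7 CPM in clone 1, 724.1 in clone 2 and 728.8 in clone 3, and 599.7 to 720.4 CPM in the controls. Its pseudogene HMGB1P5 was low in the same library (2.19 CPM against 10.28 to 15.89 CPM in controls), and reads shared by such near-identical copies make both values uncertain, as for TMSB4XP8. EVL, an actin regulator, measured 6.30 CPM in clone 1, 12.36 in clone 2 and 20.07 in clone 3. KLF4 and JUNB, transcription factors of the immediate early response, were called higher in clone 1 than in clone 3. KLF4 measured 139.6, 64.47 and 32.88 CPM in clones 1, 2 and 3 with 42.10 to 67.90 CPM in controls, and JUNB 142.7, 60.52 and 54.00 CPM with 48.55 to 92.64 CPM. GRHL3, an epithelial differentiation factor, measured 22.14 and 12.07 CPM in clones 1 and 2 and 0.524 CPM in clone 3, with 2.11 to 15.08 CPM in controls.

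Clone 3 differed from the other clones over stretches of neighbouring genes. The stretches were found by a running median over 31 genes of at least 3 CPM in chromosomal order, so they were chosen after their values were seen and carry no test. Along chromosome 8, 84 genes from CASC8 to C8orf33 had a median log2 difference of -0.58 from same-day controls in clone 3. The same genes were at -0.06 in both clone 1 and clone 2, and between -0.10 and 0.17 in the control libraries; 78 of the 84 were lower in clone 3. Along chromosome 20, 107 genes from ZSWIM1 to PCMTD2 had a median of 0.54 in clone 3, -0.06 in clone 1 and 0.02 in clone 2, with -0.07 to 0.10 in control libraries. Of these, 98 were higher in clone 3. No window of any control library was above 0.317 or below -0.406, whereas clone 3 reached 0.66 on chromosome 20 and -0.68 on chromosome 8.

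Genes of these stretches also had a low p in the comparison of all 3 clones. The stretches were chosen by values of clone 3, which enter that comparison, so these counts follow in part from the choice. Of the 84 genes on chromosome 8, 23 were among the 388 lower at an unadjusted p below 0.05, beside 2.63% of all genes. Of the 107 on chromosome 20, 19 were among the 334 higher ones, beside 2.26% of all genes. The former include KIFC2 and RHPN1. The latter include SNAI1, which was not highest in clone 3. KIFC2 measured 42.44, 50.10 and 32.58 CPM in clones 1, 2 and 3. Without clone 3 the log2 change was -0.49 for KIFC2 (adjusted p = 0.181) and -0.44 for RHPN1. MYC lies in the chromosome 8 stretch and measured 447.2, 513.3 and 417.2 CPM in clones 1 to 3 with 384.0 to 480.0 CPM in controls, so its level in clone 3 was within that of the controls. CSE1L, SS18L1 and TPD52L2 of the chromosome 20 stretch were called between clones 1 and 3; TPD52L2 measured 158.6, 259.0 and 373.5 CPM with 196.7 to 286.1 CPM in controls. Over the genes of the chromosome 8 stretch the E7 clone was at -0.50 on day A and -0.62 on day B, against the same control libraries. The 18qE clones were at -0.003 and -0.16 there, and on chromosome 20 the E7 clone was at -0.03 and -0.004 and the 18qE clones at 0.05 and -0.08. In clone 1, smaller shifts covered 31 genes of chromosome 13 from FAM124A to NDFIP2 (0.35) and 39 genes of chromosome 7 from LAMB1 to HILPDA (0.28), the latter including WNT16. Clone 3 on chromosome 13, clone 2 on chromosome 7 and the E7 clone on both also lay above the control range, with smaller medians. Clone 2 on chromosome 13 and clone 3 on chromosome 7 lay within it. Both stretches were chosen by their values in clone 1, so the control range over the same genes is no test of them. The highest window of any control library, on chromosome 1, was 0.317, above the chromosome 7 shift and below the chromosome 13 shift. The lowest, on chromosome 2, was -0.406, larger in size than either shift. Control windows held 31 genes, so the chromosome 7 shift over 39 genes is an unlike measure. On chromosome 13 clones 2 and 3 were at 0.02 and 0.13 and the E7 clone at 0.12 and 0.17, with at most 0.08 in control libraries. On chromosome 7 clones 2 and 3 were at 0.10 and 0.02 and the E7 clone at 0.15 and 0.18, with at most 0.07 in control libraries. DNA copy number was not measured here, and its part in these stretches was not tested.

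**Figure D5:**
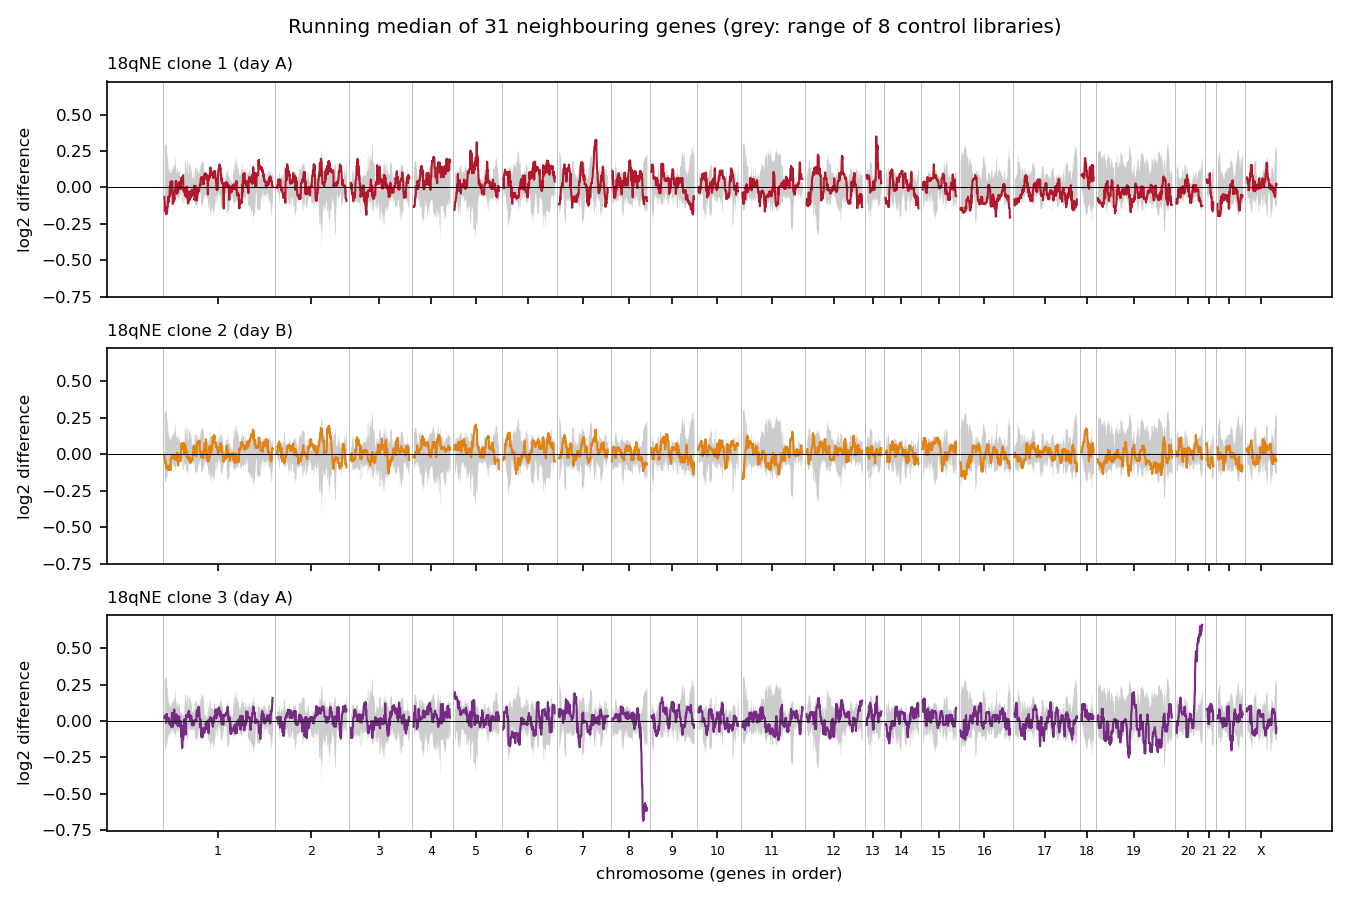
Running median of the log2 difference from same-day control clones over 31 neighbouring genes (vertical axis) along chromosomes 1 to 22 and X (horizontal axis, genes in order), 1 panel per 18qNE clone, with the range of 8 control libraries in grey. Clone 3 falls to -0.68 at the end of chromosome 8 and reaches 0.66 at the end of chromosome 20, while clone 2 stays near 0.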

How the data were processed

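RNA of 11 HCT116 libraries was analysed. The deposited files hold whole-number counts of reads per gene, 57820 genes and 1 library each, with no normalization by the authors. Per the labels' protocols, RNA was extracted with Trizol and sequenced single-end on a NextSeq500. Per the submitters' processing notes, TopHat2, Partek 3, HTSeq 0.6.1, BWA 0.6.2, CASAVA, bcl2fastq and bedtools were used with hg19; they carry no order and no strand setting, so overlapping and antisense genes cannot be told apart. The 5 summary lines of each file were left out: reads outside genes were 7.78 to 11.7% of a control library and 8.53 to 9.86% of an 18qNE library.

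Genes were kept with filterByExpr (minimum count 10) and fitted with edgeR 4.0.16 (TMM factors, quasi-likelihood test, day and group) and with limma 3.58.1 (voom, the clone as a random effect, correlation 0.0938) in R 4.3.3. P-values were adjusted by the Benjamini-Hochberg method over all genes tested, and called genes passed 0.05 in both fits. The printed log2 change and SE are from edgeR and the printed p is the larger of both. Clones were compared with each other in edgeR with a level per 18qNE clone and the day, without a term for the control clone. Differences from same-day control clones used log2 CPM with a prior count of 1. Gene order came from RefSeq GRCh38.p14, matched by ID and symbol, and no coordinates were taken from it for genes counted on hg19 except the printed promoter. The fits were run on simulated independent counts, with the same dispersion for all genes and no clone or day effect. That check cannot show how the fits handle clone or day differences.

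The comparison, its members and the gene lists were chosen with earlier results of these data known. Genes were named by rule: SMAD7 and its neighbours, up to 12 genes in each direction with at least 2 CPM and every 18qNE library beyond its same-day controls, called list members, and up to 4 genes per clone and direction with a difference from the other clones. As 1 gene was called, the places were filled by the smallest p, and those genes did not pass. CDH1, other list members with a low unadjusted p and genes of the chromosomal stretches were named for their list or stretch. Alternatives covered the scaling, the filter, the count model (DESeq2 1.42.0), the unit of replication, the day, the clone number as a block and each clone left out. Libraries of the 18qE and E7 clones and of other days were used only for values given beside the comparison and in 1 alternative; the chromatin samples were not analysed here. Some genes and 1 list are not reported here.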

Additional observations from a re-analysis of the deposited data

Results flagged for a closer look

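In 5 of 62 sets of 4 control libraries of 1 day, 1 library stood far from the other 3 for a named gene; chance alone would mark about 5% of such sets. FGF9 measured 2.84 CPM in control clone 2 on day A against 1.19 to 1.37 CPM in the other clones of that day. DSC3 measured 4.22 CPM in control clone 3 on day B, below 10.04 to 11.84 CPM in the others. SSTR5 measured 15.08 CPM in control clone 4 on day A, below 20.70 to 21.63 CPM. OLFM2 measured 16.36 CPM in control clone 4 on day B, above 9.65 to 10.56 CPM. CTIF measured 33.73 CPM in control clone 3 on day A, above 27.65 to 28.52 CPM.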

How the results depend on the processing

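The number of genes called in 18qNE against control was 1 with RLE and upper-quartile scaling, a stricter filter, no day term, DESeq2 in place of edgeR, and limma alone. It was 3 with no filter on low counts, 3 with edgeR alone, 0 with control libraries summed per clone (edgeR; 505 genes at an unadjusted p below 0.05) and 0 on day A only (326 genes). Leaving out 1 clone at a time gave 0 to 5. Among alternatives chosen after seeing the data, the count was 2 without the day B library of control clone 3, 5 with the control libraries of day C added, and 23 with DESeq2 alone (13 higher, 10 lower). The clone numbers do not pair the libraries: deviations of same-numbered 18qNE and control libraries correlated at -0.0579, 0.00567 and 0.0402, and no 18qNE library correlated best with its own number. With the number as a replicate block the count was 33 (19 higher, 14 lower). Between clones 1 and 2 the count was 26 with no filter and 12 with DESeq2, and 0 to 2 with a control clone left out. Between clones 1 and 3 it was 310 with no filter, 236 with DESeq2 and 3 to 82 with a control clone left out. Between clones 2 and 3 it was 62 with no filter and 27 with DESeq2. The highest window of clone 1 was 0.252 over 51 genes and 0.287 with genes of at least 10 CPM. Estimates changed sign for 3 genes. With 1 clone left out at a time, DYM ranged from -0.410 to 0.0816 (above 0 without 18qNE clone 3), SMAD2 from -0.0325 to 0.134 (below 0 without 18qNE clone 1) and SMAD4 from -0.0379 to 0.0596 (below 0 without 18qNE clone 1 and without control clone 1, -0.0128); SMAD4 was at -0.00778 with upper-quartile scaling. Over 31 named genes and 21 alternatives, 600 of 651 values kept their direction and side of the threshold, 4 lost the call, 42 gained it and 5 changed sign. Only SLC2A1 was called in the main fit, and all 4 losses were its own. For the other genes, keeping the side of the threshold meant staying uncalled. The median of the TGF-beta targets was -0.16 without 18qNE clone 1 and 0.31 without clone 3. Where a call was lost or gained the cause was not tested, except that day A only and the left-out clones use fewer libraries. Depth limits genes below about 1 CPM, such as LIPG, whose interval spans more than 1 log2 unit either side.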

Other observations

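Several gene lists took different directions in the 3 18qNE clones. Of 25 lists plotted with at least 10 genes tested, clone 1 had a median above the range of the control libraries in 6 and below it in 0. Clone 2 was above the range in 3 and below it in 0, and clone 3 was above it in 2 and below it in 5. The 21 immediate early genes had a median log2 difference of 0.362 in clone 1, 0.221 in clone 2 and -0.407 in clone 3, with -0.165 to 0.202 in control libraries. EGR1, an immediate early transcription factor, measured 96.52 CPM in clone 1 and 29.36 CPM in clone 3, and 29.32 to 74.70 CPM in day A controls. The 18 MAPK feedback and output genes were at 0.29, 0.24 and -0.105. MHC class I presentation genes were at 0.0446, 0.0382 and -0.352, with -0.317 to 0.238 in controls. DNA replication and ribosome biogenesis genes had the reverse order, at -0.191 and -0.198 in clone 1 and 0.286 and 0.23 in clone 3. Control libraries spanned -0.251 to 0.259 and -0.203 to 0.175, so clone 1 lay within both ranges and clone 3 above them. These are medians within single libraries, and the differences between clones were not tested as lists.

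DKK1, a secreted Wnt inhibitor, separated control clones by clone rather than by day. It measured 714.4 to 938.0 CPM in control clones 1, 2 and 3 on both days, and 109.4 and 100.8 CPM in control clone 4. The 18qNE clones lay between, at 351.7, 232.9 and 368.3 CPM, and the gene was not called (log2 change -1.09, adjusted p = 0.949). It was among the 4 genes called without control clone 4. KRT20, a keratin of differentiated intestinal cells, showed the same split among controls: 0.64 and 0.987 CPM in clone 4 and 4.13 to 7.47 CPM in clones 1 to 3. In the 18qNE clones KRT20 measured 0.963, 4.10 and 1.498 CPM. DKK1 and KRT20 were picked after their values were seen.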
